A study of Rattus norvegicus with 8 samples.

Results

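The genes for the erythroid transcription factors Gata1, Klf1, Tal1 and Nfe2 were followed in rat whole blood together with the genes of the receptors that carry the erythropoietin signal and bring in iron, Epor and Tfrc. Their probe sets were those that the annotation of the array assigns to exactly 1 of these 6 symbols, and none was left out. This gave 10 of the 31042 probe sets tested and 6 of 14217 named genes. Gata1, Klf1 and Nfe2 had 1 probe set each, Tal1 and Tfrc had 2 each and Epor had 3.

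The blood came from male Wistar rats on a high-fat diet (Quick fat), measured on 4 arrays, or on the same diet with 1% mulberry leaf powder, also on 4 arrays. The rats were 7 weeks old at purchase, spent a week on normal chow, ate their test diet for 8 weeks and were bled on day 56 after a night without food. Each diet was given to 10 rats, and the labels do not say which rats, or how many, stand behind an array, so every p-value measures the spread between these samples. Rats on the normal diet were not analysed here, so both groups compared share the high-fat diet and differ in the leaf powder.

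Red cells in the circulation have no nucleus, and the RNA they carry is what reticulocytes, the youngest of them, bring out of the marrow. In erythroblasts GATA1, a zinc finger protein, binds GATA motifs and acts in a complex with the helix-loop-helix protein TAL1, while KLF1 binds CACCC motifs in globin and other red cell genes. NFE2 is the large subunit of a dimer with small Maf proteins and also drives platelet formation, and GATA1 and TAL1 are likewise active in megakaryocytes. EPOR is the receptor of erythropoietin, which keeps erythroid progenitors alive, and TFRC, transferrin receptor 1, takes up iron bound to transferrin and is also found on dividing cells of other kinds. In whole blood fewer cells of a type and less RNA per cell cannot be told apart.

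The arrays varied far less between samples than log2 intensities usually do. Over the 31042 probe sets the median SD across the 8 arrays was 5.31e-06 on the deposited log2 scale, so a difference there is no ordinary fold change. Values are therefore given in SD units, each array's deviation from the mean of the 8 arrays divided by the SD of that probe set over them, and differences as mulberry minus high-fat in the same units. Mean levels are on the deposited log2 scale, with a median of 6.57 over all probe sets, and are not compared between genes as amounts of RNA. The spread of the members on that scale was wide for this dataset. The SD of Gata1, Nfe2, Klf1, the brighter Tal1 probe set and the brighter Tfrc probe set, 5 of 10, lay above the 90th percentile of all probe sets, against 10% by definition. These 5 were also the members of highest mean level, at percentile 89.6 or above. The other 5 had levels at percentile 71.9 or below and SDs at percentiles 47.7 to 88.3. The wide spread is thus not separable here from a high level. The SD itself was 0.000279 for Gata1, 0.000275 for Nfe2 and 0.000147 for Klf1.

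Promoter sequences of 5 of the 6 genes were found in RefSeq (GRCr8), and Nfe2 was not among them. The 250 bases before the start of transcription are shown for Klf1 and Epor, which held a GATA hexamer, and for Gata1 and Tfrc, whose levels went together across the arrays. Capitals mark GATA hexamers, which read AGATAA in one form, AGATAG in another, TGATAA in the next and TGATAG in the last, and the pentamer CACCC. Both were searched on both strands, so a match on the other strand shows its reverse complement.
Klf1: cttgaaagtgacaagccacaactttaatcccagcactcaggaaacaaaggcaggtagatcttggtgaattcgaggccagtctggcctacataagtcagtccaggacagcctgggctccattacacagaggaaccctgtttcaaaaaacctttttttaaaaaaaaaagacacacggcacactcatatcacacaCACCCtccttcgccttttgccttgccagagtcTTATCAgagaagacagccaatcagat
Epor: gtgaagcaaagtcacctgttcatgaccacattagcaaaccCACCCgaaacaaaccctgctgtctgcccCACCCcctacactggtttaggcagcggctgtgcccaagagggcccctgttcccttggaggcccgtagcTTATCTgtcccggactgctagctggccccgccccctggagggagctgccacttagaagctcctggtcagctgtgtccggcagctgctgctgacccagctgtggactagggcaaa
Gata1: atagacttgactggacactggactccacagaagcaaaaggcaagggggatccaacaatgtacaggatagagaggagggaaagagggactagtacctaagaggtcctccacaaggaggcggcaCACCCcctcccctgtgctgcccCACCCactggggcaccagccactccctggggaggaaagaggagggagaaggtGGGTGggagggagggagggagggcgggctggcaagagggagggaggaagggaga
Tfrc: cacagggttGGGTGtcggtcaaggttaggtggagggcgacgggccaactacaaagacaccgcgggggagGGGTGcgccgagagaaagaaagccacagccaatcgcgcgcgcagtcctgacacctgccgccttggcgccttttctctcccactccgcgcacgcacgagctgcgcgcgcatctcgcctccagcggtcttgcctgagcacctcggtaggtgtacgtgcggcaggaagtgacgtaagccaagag
These stretches lie at chr19:40158652-40158901 on the minus strand for Klf1, chr8:28770323-28770572 on the minus strand for Epor, chrX:17201387-17201636 on the plus strand for Gata1 and chr11:81690319-81690568 on the minus strand for Tfrc, each printed 5′ to 3′ along its gene. The GATA hexamer of Klf1 began 26 bases before the start and that of Epor 114 bases before it. Such a hexamer was present in 26.7% of 27457 rat promoters of the same length, and CACCC in 49.4%. Klf1 had 1 CACCC match, Gata1 had 3, Epor 2 and Tfrc 2, and the Tal1 promoter had neither motif. The letters CAGNTG, an E-box of the kind TAL1 dimers bind, occurred 4 times before Epor and once each before Tal1 and Tfrc, against 42.9% of promoters with at least 1. The core TGANTCA, bound by NFE2 dimers and related factors, was in 6.36% of promoters and in none of these 5. A match is a description of the letters and no evidence of binding in these cells.

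Between the diets Gata1 and the brighter of the Tal1 probe sets had higher means and Klf1 a lower mean with mulberry, each by a little over 1 SD unit, while the dimmer Tal1 probe set, Nfe2 and Epor stayed within the spread of the arrays and Tfrc lay between. No member passed the threshold of 0.05 by limma after Benjamini-Hochberg adjustment over all probe sets, and the adjusted p was 1 for all 10. The same fit called 0 of 31042 probe sets, or 0%. At an unadjusted p under 0.05 it counted 0 of the 10 members against 4.36% of all probe sets (1352). Means were higher in 7 of the 10 members and lower in 3, against 52.7% higher over all, and the median difference was 0.218 against 0.0559. The difference reached 1 SD unit in size in 3 of 10 members, against 15.7% of all probe sets.

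**Figure D1:**
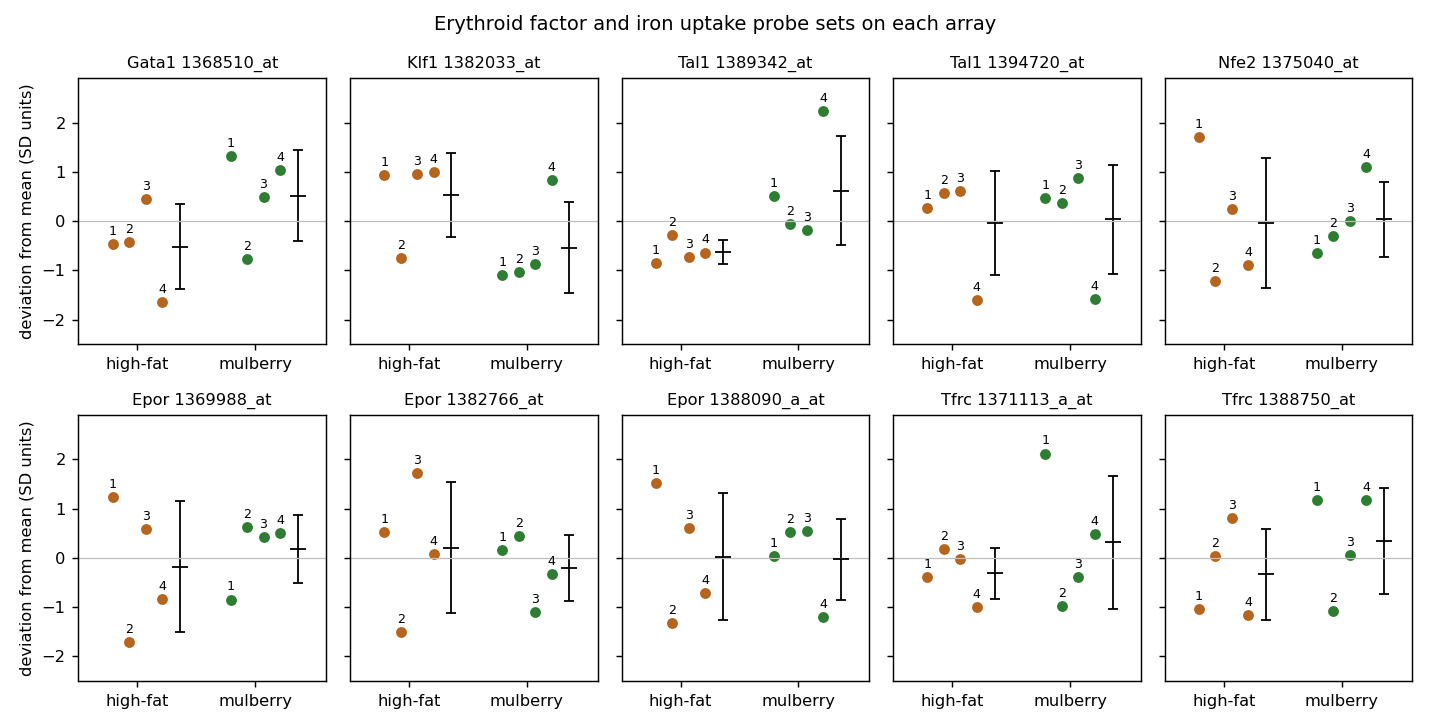
Deviation from the mean in SD units (vertical axis) of the 10 probe sets on each array, with high-fat arrays in brown and mulberry arrays in green, numbered by replicate. The black bar beside each diet is its mean ± SD (n = 4). The Tal1 probe set 1389342_at is the only panel in which all 4 mulberry arrays lie above all 4 high-fat arrays, and Klf1 falls into 2 levels.

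The Klf1 probe set (1382033_at, mean level 8.96) fell into 2 separate levels. High-fat replicates 1, 3 and 4 stood at 0.942, 0.95 and 0.989 SD units and mulberry replicate 4 joined them at 0.837. Mulberry replicates 1, 2 and 3 stood at -1.09, -1.03 and -0.865, and high-fat replicate 2 joined those at -0.739. Each diet thus had 3 arrays at one level and 1 at the other, and the empty gap between the levels was 1.58 SD units wide, 75.9% of the range. The high-fat mean was 0.535 ± 0.85 and the mulberry mean -0.535 ± 0.92 (SD, n = 4 for each). The difference of -1.07 ± 0.589 (SE) had a limma unadjusted p of 0.113 and a two-sided exact permutation p of 0.0571 over the 70 assignments of arrays, whose smallest possible p is 0.0286. On the deposited log2 scale it was -0.000157.

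The same 4 arrays ranked above the other 4 in 285 probe sets (0.918% of all), and below them in 604 (1.95%). A gap between those sets of arrays as wide as that of Klf1 was found in 1 probe set of 31042, Klf1 itself. This search was chosen after the Klf1 values were seen. Both the split and the width were taken from Klf1, so Klf1 is counted by construction. Gaps as wide under other splits of the arrays were not counted, so the search does not show how rare such a pattern is. The hybridization controls, 18 probe sets for control transcripts added to each sample, split the arrays the same way in the opposite sense. Their mean score was 1.3, 0.695 and 0.473 in mulberry replicates 1 to 3 and 0.439 in high-fat replicate 2, against -1.44, -0.16, -1.07 and -0.236 in the 4 arrays of high Klf1. With that score in the limma model the Klf1 difference was -0.00941 ± 0.494 (SE), while it was -1.47 ± 0.652 (SE) with the platelet score in the model. The part of the controls in the Klf1 pattern was not tested beyond that value.

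**Figure D2:**
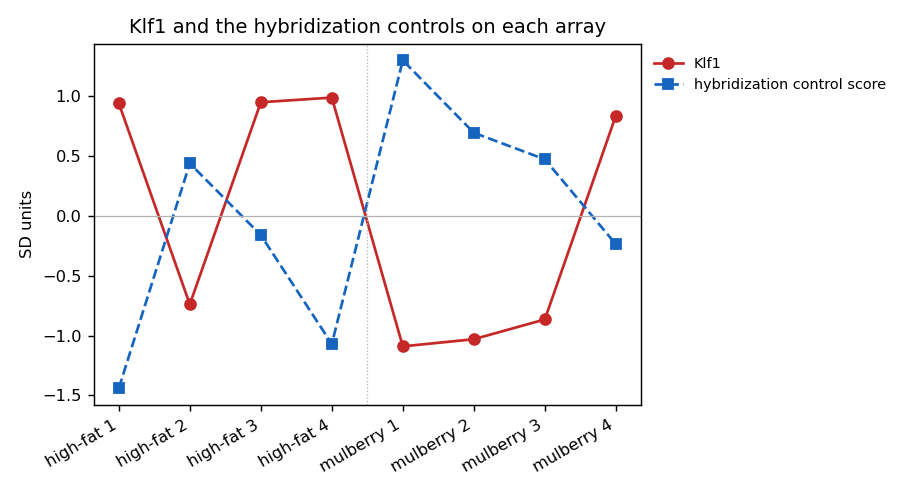
Klf1 (circles, solid line) and the mean score of the 18 hybridization control probe sets (squares, dashed line) on each array, in SD units. Lines only join the points of a series and arrays have no order. The 4 arrays with Klf1 at 0.837 or more all have a control score below 0, and the 4 with Klf1 at -0.739 or less all have one above 0.

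Tal1 was measured by a brighter and a dimmer probe set that behaved differently. In the brighter one (1389342_at, mean level 8.91) the high-fat arrays stood at -0.847, -0.277, -0.728 and -0.637 SD units and the mulberry arrays at 0.51, -0.0648, -0.184 and 2.23. All 4 mulberry arrays were above all 4 high-fat arrays, although the nearest pair was only 0.0928 SD units apart and mulberry replicate 4 lay far above the rest. The difference was 1.25 ± 0.536 (SE), with means of -0.623 ± 0.246 and 0.623 ± 1.11 (SD, n = 4 in each diet). The limma unadjusted p was 0.0542 and the exact permutation p 0.0286, the lowest value possible here. Of the 10 members it was the 1 without overlap of the diets, and so also the 1 with an exact permutation p under 0.05, against 2.52% of all probe sets in either direction and 1.6% in the higher direction. After quantile normalization the probe set took 1 value on all arrays and the difference was 0. The median difference over all 31042 probe sets was 0 as well after that step. A value of 0 given below for quantile normalization can thus stand for tied arrays and says little about the gene.

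The dimmer Tal1 probe set (1394720_at, mean level 6.87) did not separate the diets. High-fat replicate 4 at -1.61 and mulberry replicate 4 at -1.58 were low, and the other 6 arrays lay between 0.267 and 0.879. The difference was 0.0721 ± 0.727 (SE) with a limma unadjusted p of 0.924. The probe sets of Tal1 had a Pearson r of -0.468 over the 8 arrays (exact permutation p = 0.225, Spearman rho -0.0714 with exact p = 0.882, r 0.348 without the 2 arrays farthest from the median).

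Gata1 (1368510_at, mean level 7.76) was highest in mulberry replicates 1 and 4, at 1.32 and 1.04 SD units, and lowest in high-fat replicate 4, at -1.64. The other high-fat arrays stood at -0.474, -0.426 and 0.458, and mulberry replicates 2 and 3 at -0.776 and 0.497. In 3 of 4 mulberry arrays Gata1 exceeded every high-fat array, and the fourth lay below all but 1 of them. The means were -0.521 ± 0.862 and 0.521 ± 0.931 (SD, n = 4 each), a difference of 1.04 ± 0.596 (SE) with a limma unadjusted p of 0.125 and an exact permutation p of 0.171. Differences of 1 SD unit or more in the higher direction, as in Gata1 and the brighter Tal1 probe set, were found in 9.4% of all probe sets, and in the lower direction, as in Klf1, in 6.31%.

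Platelet markers and the polyA controls also had higher means in the mulberry arrays. All 15 platelet markers measured had higher means with mulberry, and their score ran from -1.47 to 0.136 in the high-fat arrays and from -0.229 to 1.67 in the mulberry arrays, with the extremes at replicate 4 of each diet. With the platelet score in the limma model the difference of the brighter Tal1 probe set was 0.723 ± 0.506 (SE) and that of Gata1 0.631 ± 0.659. The polyA controls, 24 probe sets for bacterial transcripts added to the RNA before labelling, averaged -0.49 ± 0.899 in the high-fat and 0.49 ± 0.699 in the mulberry arrays (SD, n = 4 each). With their score in the model the difference was 0.766 ± 0.619 for the brighter Tal1 probe set and 0.231 ± 0.528 for Gata1. With the red cell score in the model the differences were 1.39 ± 0.546 and 1.27 ± 0.546. The dimmer Tal1 probe set differed by 0.189 ± 0.901 with the platelet, -0.115 ± 0.953 with the polyA and 0.057 ± 0.812 with the red cell score. The part of these cells and controls in the Tal1 and Gata1 differences was not tested beyond these values.

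Nfe2 (1375040_at, mean level 10.04) did not differ between the diets beyond its spread. The high-fat arrays stood at 1.71, -1.21, 0.243 and -0.899 SD units and the mulberry arrays at -0.645, -0.308, 0.00569 and 1.11. Every mulberry value lay inside the high-fat range. The difference was 0.0814 ± 0.717 (SE, exact permutation p = 0.914), and it had no stable sign, as it was -0.597 ± 0.691 with the platelet score and 0.526 ± 0.297 with the red cell score in the limma model.

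Nfe2 varied with the red cell score from array to array, and by rank nearly as closely with the platelet score. The score of 27 red cell target genes, among them the beta globin gene, the heme synthesis enzymes and the membrane skeleton, was 0.854, -0.23, 0.342 and -0.509 in the high-fat arrays and -0.198, -0.438, -0.296 and 0.475 in the mulberry arrays. Nfe2 was highest on the same 2 arrays, high-fat replicate 1 and mulberry replicate 4. Over the 8 arrays Pearson r was 0.888 (exact permutation p = 0.0034, adjusted p = 0.034 over 20 relations of 5 member genes with 4 scores, computed after the values were seen), and Spearman rho was 0.738 (exact p = 0.0458, adjusted p = 0.306). Within the diets r was 0.929. Without the 2 arrays farthest from the median of the score, which are the 2 highest, r fell to 0.548, so the relation rests largely on those arrays. With the platelet score Nfe2 had an r of 0.572 (exact permutation p = 0.143, adjusted p = 0.398) and a rho of 0.69. Its r was -0.527 with the hybridization controls (-0.732 within the diets) and -0.165 with the polyA controls. Gata1, Tal1, Epor and Tfrc had r of 0.322, 0.132, 0.351 and 0.222 with the red cell score (rho 0.476, -0.119, 0.31 and 0.548), with exact permutation adjusted p from 0.601 to 0.836.

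Epor was measured by 3 probe sets, with mean levels of 7.01 for 1388090_a_at, 6.75 for 1369988_at and 6.62 for 1382766_at, and none separated the diets. The median level of all probe sets was 6.57, and no detection calls were used. Whether these signals stood above background was not tested, so the values below may say little about Epor RNA. In the brightest, 1388090_a_at, the high-fat arrays stood at 1.53, -1.32, 0.609 and -0.715 SD units and the mulberry arrays at 0.0409, 0.525, 0.541 and -1.21, all 4 of them inside the high-fat range. Its difference was -0.0496 ± 0.718 (SE, exact permutation p = 0.943). In 1369988_at the high-fat arrays stood at 1.24, -1.7, 0.578 and -0.828 and the mulberry arrays at -0.846, 0.63, 0.43 and 0.497, a difference of 0.355 ± 0.706 (exact permutation p = 0.686). In 1382766_at they stood at 0.52, -1.5, 1.72 and 0.0733 and at 0.162, 0.446, -1.1 and -0.319, a difference of -0.405 ± 0.714 (exact permutation p = 0.629). High-fat replicate 2 was the lowest array in each of the 3 probe sets. Their pairwise Pearson r over the 8 arrays was 0.718 (1369988_at and 1388090_a_at), 0.544 and 0.52, with exact permutation p of 0.0469, 0.162 and 0.192, or 0.117, 0.225 and 0.225 after adjustment over the 5 pairs of probe sets that share a gene. Spearman rho for these pairs was 0.738, 0.738 and 0.714, and r without the 2 arrays farthest from the median was 0.668, 0.272 and 0.206.

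Tfrc was higher in the mulberry mean in both of its probe sets, and both means lay within the spread. In the brighter probe set (1388750_at, mean level 7.78) the high-fat arrays stood at -1.03, 0.0324, 0.811 and -1.16 SD units and the mulberry arrays at 1.18, -1.07, 0.0481 and 1.18. Mulberry replicates 1 and 4 were above every high-fat array, and mulberry replicate 2 was as low as the lowest high-fat arrays. The difference was 0.67 ± 0.67 (SE, exact permutation p = 0.314). In the dimmer one (1371113_a_at, mean level 6.17) the values were -0.391, 0.171, -0.0278 and -1 against 2.12, -0.973, -0.38 and 0.482, a difference of 0.624 ± 0.682 (exact permutation p = 0.486). Single arrays moved both values, as without mulberry replicate 1 they were 0.407 and 0.0389, and without mulberry replicate 2 they were 1.17 and 1.06. These probe sets agreed across the arrays, with a Pearson r of 0.807 (exact permutation p = 0.0025, adjusted p = 0.0125), a Spearman rho of 0.929 (exact p = 0.00223) and an r of 0.84 without the 2 arrays farthest from the median.

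Gata1 and Tfrc tracked each other, and theirs was the 1 relation among the member genes that passed the threshold. Of the 15 pairs of genes, each gene taken at its brightest probe set, the 5 pairs with Klf1 are not given because its arrays fell into 2 levels of 4 arrays each. Over the 8 arrays Gata1 and Tfrc had a Pearson r of 0.914 (exact permutation p = 0.000248 over 40320 pairings, adjusted p = 0.00372 over the 15 pairs) and a Spearman rho of 0.976 (exact p = 0.000397). With each gene centred within its diet r was 0.922, and it was 0.893 without the 2 arrays farthest from the median of Gata1. Both genes were high in mulberry replicates 1 and 4 and in high-fat replicate 3, and low in high-fat replicate 4 and mulberry replicate 2. With the dimmer Tfrc probe set r was 0.802 (exact permutation p = 0.0127). The mean level of that probe set, 6.17, lay at percentile 24.1 of all probe sets, so it may hold little Tfrc signal. In all 30 of 14216 genes (0.211%) had an r with Gata1 as high as that of Tfrc.

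The size of that relation stayed between 0.887 and 0.935 with each array left out, but with 7 arrays its exact permutation adjusted p rose to 0.0744, 0.0952, 0.158 and 0.0625 without high-fat replicate 3, high-fat replicate 4, mulberry replicate 1 and mulberry replicate 2. The polyA controls followed both genes, with Pearson r of 0.888 for Tfrc (exact permutation p = 0.00325, adjusted p = 0.034, Spearman rho 0.833 with exact p = 0.0154 and adjusted p = 0.306) and 0.825 for Gata1 (exact permutation p = 0.012, adjusted p = 0.0797, rho 0.762 with exact p = 0.0368). Without the 2 arrays farthest from the median of the control score these were 0.821 and 0.769, and within the diets 0.893 and 0.743. With the polyA score removed from both genes their r was 0.698, and 0.458 with the dimmer Tfrc probe set. With the red cell, platelet or hybridization control score removed it was 0.913, 0.88 and 0.886. With the polyA score in the limma model the Tfrc differences turned to -0.427 ± 0.4 (SE) for the brighter and -0.311 ± 0.599 for the dimmer probe set.

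**Figure D3:**
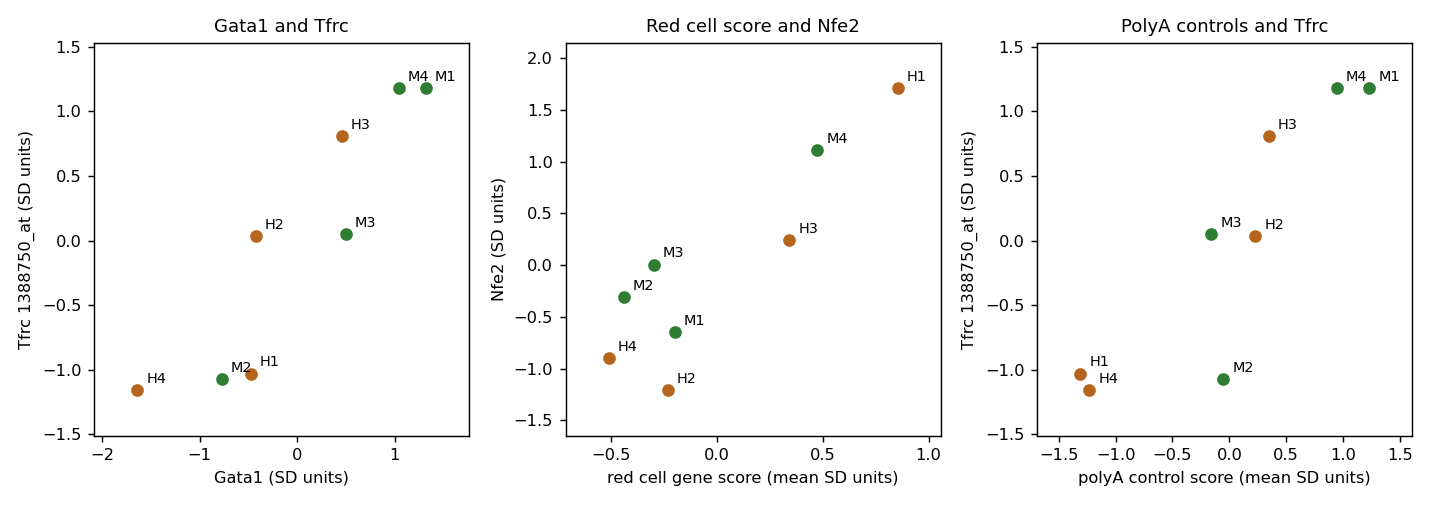
Left, Tfrc (1388750_at) against Gata1. Middle, Nfe2 against the mean score of 27 red cell target genes. Right, Tfrc against the mean score of the 24 polyA control probe sets. Each point is an array, brown for high-fat (H) and green for mulberry (M), numbered by replicate, all axes in SD units. Gata1 and Tfrc rise together (r = 0.914), and the highest points of the middle plot are H1 and M4.

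The other 9 pairs did not pass. Gata1 and Tal1 had an r of 0.598 (exact permutation p = 0.109, adjusted p = 0.524, rho 0.571, r 0.614 without the 2 farthest arrays) and Tal1 and Tfrc one of 0.615 (exact p = 0.0779, adjusted p = 0.524, rho 0.5), which was -0.00965 without the 2 arrays farthest from the median of Tal1. Tal1 and Epor had an r of -0.531 (exact p = 0.172, adjusted p = 0.524, rho -0.548, r -0.313 without the 2 farthest arrays). Nfe2 and Epor had an r of 0.498 (exact p = 0.211, adjusted p = 0.528, rho 0.643). It was 0.918 without mulberry replicate 4, where Nfe2 was high and Epor low, with an exact permutation adjusted p of 0.0104, and 0.934 without the 2 arrays farthest from the median of Nfe2. The other 5 pairs had r between -0.315 and 0.263 and rho between -0.143 and 0.238, with exact permutation adjusted p of 0.911 or more.

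**Figure D4:**
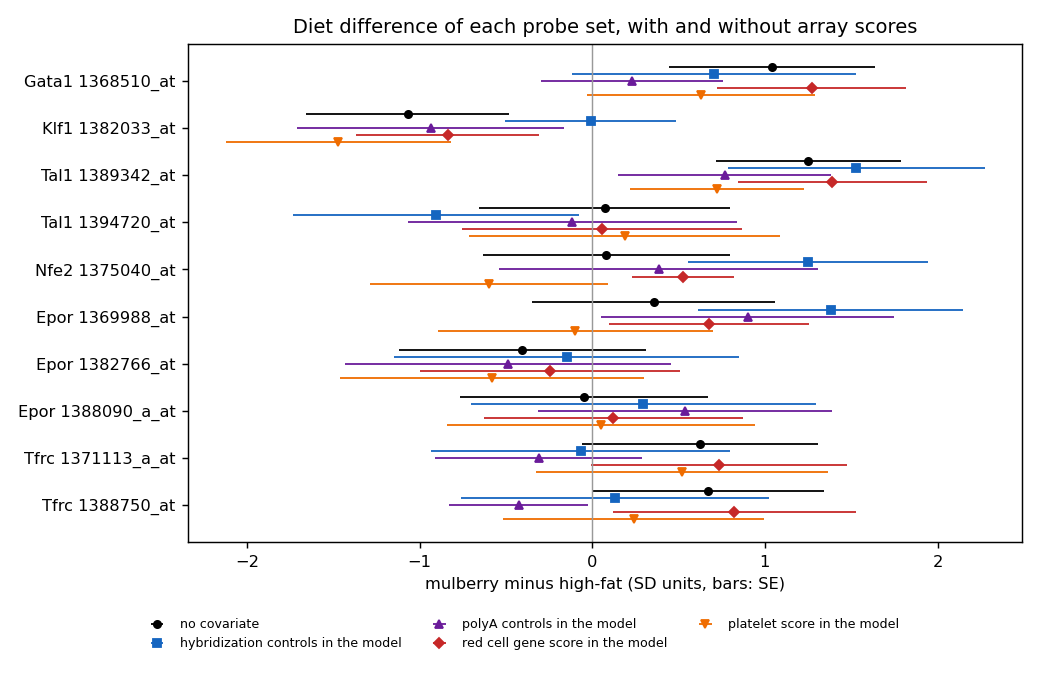
Mulberry minus high-fat difference of each of the 10 probe sets in SD units, with bars of 1 SE, from the limma model without a covariate (black circles) and with 1 array score added. The Klf1 difference goes from -1.07 to -0.00941 when the hybridization controls are added, and the Gata1 difference from 1.04 to 0.231 with the polyA controls.

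Among the partners and antagonists of these factors none passed the adjusted threshold. Of 28 lineage factors measured beside the members, 13 had higher and 15 lower means with mulberry, the median difference was -0.0202, and limma called 0 after adjustment. At an unadjusted p under 0.05 it counted 2 higher and 1 lower, against 2.74% and 1.61% of all probe sets. The higher ones were Gfi1b, a repressor needed for red cell and platelet formation (1.3 ± 0.516, SE, limma unadjusted p = 0.0409), and its myeloid relative Gfi1 (1.3 ± 0.528, limma unadjusted p = 0.0448). The lower one was Zbtb7a, a repressor of fetal globin genes (-1.39 ± 0.574, limma unadjusted p = 0.0465, 1.13 after median centring and 0.707 after quantile normalization). As means over the probe sets of a gene, the Zbtb7a difference was -0.76 and that of Gfi1 1.01. The mean level of Gfi1, 6.09, lay below the median of 6.57 over all probe sets. Lyl1, a helix-loop-helix relative of Tal1, differed by 1.08 ± 0.586. After quantile normalization Gfi1b and Lyl1 took a difference of 0, and with the platelet score in the model they differed by 0.846 and 0.463.

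Of 23 genes of erythropoietin receptor signalling, 14 had higher and 9 lower means, with a median of 0.148, and limma called 0. Pim1, a survival kinase induced by STAT5, differed by 1.26 ± 0.53 (SE, limma unadjusted p = 0.0499) and was the 1 of 23 genes under an unadjusted p of 0.05, against 4.36% of all probe sets. With the polyA controls in the model the Pim1 difference was 0.558, and with the platelet score 0.738. Stat5a, a gene for STAT5 itself, differed by 1.15 ± 0.625 (0 after quantile normalization). The phosphatase gene Ptpn6, which turns the receptor off, differed by -0.821 ± 0.645 and the feedback inhibitor gene Socs1 by -0.732 ± 0.662 (0.69 after median centring). The mean level of Socs1, 6.45, lay below the median of 6.57 over all probe sets.

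Among 29 genes of iron uptake, storage and sensing, 13 had higher and 16 lower means, with a median of -0.0721, and limma called 0. At an unadjusted p under 0.05 it counted 2 higher and 1 lower, against 2.74% and 1.61% of all probe sets. In 1 gene of the list the diets did not overlap in the higher direction and in 1 in the lower, against 1.6% and 0.915% of all. Slc40a1, ferroportin, the exporter of iron from cells, stood at -0.648, -0.705, -0.222 and -1.56 SD units in the high-fat and at 0.392, 0.563, 0.467 and 1.71 in the mulberry arrays. All 4 mulberry arrays lay above all 4 high-fat arrays, by 1.57 ± 0.393 (SE, limma unadjusted p = 0.00562, adjusted p = 1, exact permutation p = 0.0286). After quantile normalization the difference was 0, and with the platelet score in the model 0.993. Cybrd1, a ferric reductase, differed by -1.54 ± 0.477 (limma unadjusted p = 0.0153, 1.06 after median centring, 0.483 after quantile normalization). The mean level of Cybrd1, 6.42, lay below the median of 6.57 over all probe sets. Abcb10, a mitochondrial transporter of developing red cells, differed by 1.28 ± 0.524 (limma unadjusted p = 0.0457, 0.607 with the polyA controls in the model). Hmox2, the constitutive heme oxygenase, differed by -1.29 ± 0.55 without overlap of the diets (1.13 after median centring and 0.707 after quantile normalization).

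Red cell target genes had lower means in 18 of 27 cases, with a median of -0.394, and limma called 0. That median was -0.0777 without high-fat replicate 1 and 0.0692 with the hybridization controls in the fit. Hemgn, an erythroid nuclear protein, differed by -1.32 ± 0.51 (SE, limma unadjusted p = 0.0376), and by 0 after quantile normalization. The high-fat arrays of Hemgn stood at 1.8, 0.233, 0.45 and 0.144, all above mulberry replicates 1 to 3 at -1.01, -1 and -1.1, and mulberry replicate 4 at 0.483 lay among them. Car2, carbonic anhydrase 2, differed by -1.22 ± 0.544 (-0.477 with the hybridization controls, -0.269 after median centring). Ahsp, the chaperone of alpha globin, differed by -1.09 ± 0.584 (0.0412 once the hybridization controls entered the model). Epb41, a protein of the membrane skeleton, differed by 1.09 ± 0.584 (0 after quantile normalization, 0.48 as the mean of its probe sets, 0.245 with the hybridization controls). Mean levels ran from 6.11 to 15.09 in this list and from 6.91 to 12.67 among platelet markers, and no detection calls were used.

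**Figure D5:**
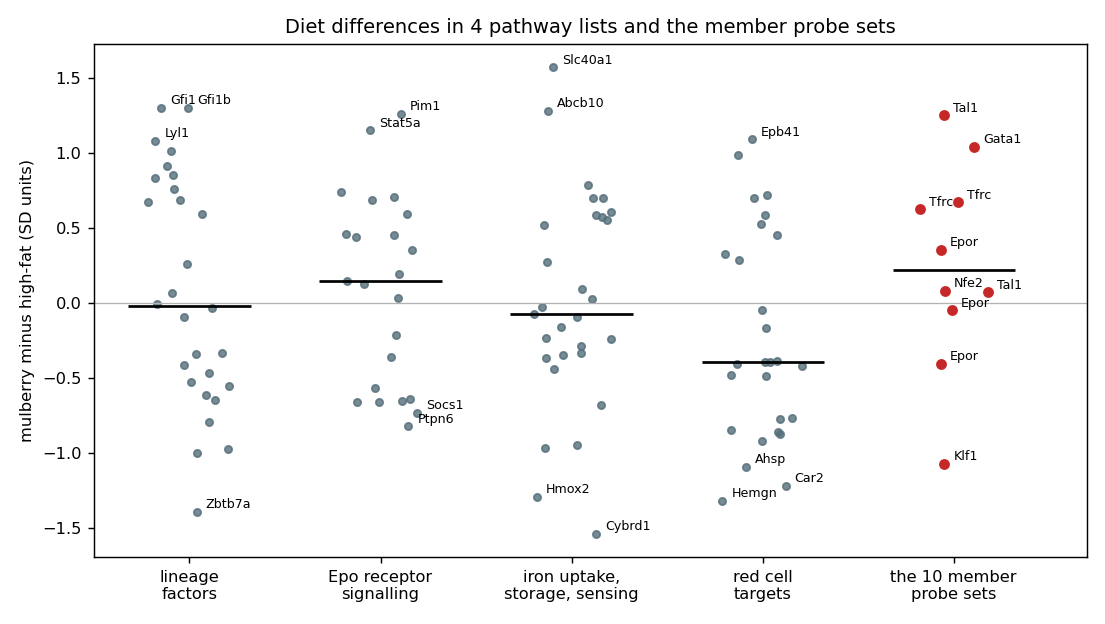
Mulberry minus high-fat differences in SD units of the measured genes of 4 lists (grey, 1 probe set a gene, members left out) and of the 10 member probe sets (red), with a black line at each median. Points are spread sideways only to be seen apart. The medians lie between -0.394 for red cell targets and 0.218 for the members.

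Markers of other blood cells differed as follows, and limma called 0 genes in each list. The genes at an unadjusted p under 0.05 were Alox12 (1 of 15 platelet markers), Irf8 (1 of 14 monocyte markers) and Cd3g (1 of 15 T cell markers). Over all probe sets the share was 4.36%. Means of B cell markers were lower in 10 of 10 (score -0.861 to 1.31 in high-fat and -0.877 to 0.537 in mulberry arrays, Fcer2 -1.03 ± 0.599, SE) and natural killer markers in 12 of 12 (-0.318 to 2.12 and -0.59 to -0.093, Klrc1 -1.21 ± 0.551, 0.749 after median centring). Monocyte markers were lower in 11 of 14 (-0.371 to 1.51 and -0.748 to 0.283, Irf8 -1.27 ± 0.526). Neutrophil markers had higher means in 8 of 11 (-1.16 to 0.275 and -0.215 to 0.535, Padi4 1.07 ± 0.599, 0 after quantile normalization), T cell markers in 9 of 15 (-0.357 to 0.733 and -0.394 to 0.423, Cd3g -1.4 ± 0.481, 0.949 after median centring, 0 after quantile normalization) and eosinophil, mast cell and basophil markers in 8 of 12 (-0.269 to -0.0237 and -0.206 to 0.417, Hdc 0.976 ± 0.612). The platelet gene of smallest p was Alox12 (1.27 ± 0.528). The mean levels of Klrc1 (6.44) and Hdc (6.51) lay below the median of 6.57 over all probe sets. The part of these blood cells in the member differences was not tested, apart from the platelet score in the model.

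The genes whose profile over the 8 arrays was most like that of a member were sought among the other 14216 named genes by Pearson r, as a description. All arrays share whatever set their depth and labelling apart, and with 8 arrays high values are easily reached. For Gata1 they were Dnajb2 (0.988), Smox (0.977), a spermine oxidase, and Tnpo2 (0.973), a nuclear import receptor. For Tfrc they were Ell2 (0.99), a transcription elongation factor, Vopp1 (0.963) and Ermn (0.947). For Klf1 they were Ttc9c (0.971), Eva1b (0.958) and Mgst3 (0.954), all with lower mulberry means, by -1.13, -1.25 and -0.923. For Tal1 they were Gon7 (0.966), Pttg1ip (0.964) and Cttnbp2nl (0.96), each highest in mulberry replicate 4. For Nfe2 they were Rgmb (0.965), Exph5 (0.958) and Slc19a1 (0.946), a folate carrier. For Epor they were Ppy (0.989), Uts2 (0.982) and Kdr (0.978), whose products are a pancreatic hormone, a vasoactive peptide and an endothelial growth factor receptor.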

How the data were processed

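Biotinylated aRNA from 200 ng of total RNA per sample was hybridised to Affymetrix rat arrays, per the labels' protocols. The values deposited by the authors were read as log2 probe set summaries. How they were summarised and normalised is not given in the sources used here, and the number of arrays limits the precision. Of 31099 probe sets, 57 manufacturer controls were left out. Names came from the platform annotation through RefSeq gene numbers (20826 probe sets named 1 gene, 436 several, 9780 none). Lists used the probe set of highest mean for each gene.

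Diets were compared with limma 3.58.1 in R 4.3.3 (lmFit, eBayes, two-sided, no covariate, Benjamini-Hochberg over 31042 probe sets, threshold 0.05). Exact permutation tests, correlations and motif searches ran in Python 3.11.15. The member genes and lists were chosen with earlier results of these data known. Named genes were the members, the 4 of smallest p in each pathway list, 1 in each cell type list, and the 3 most like each member. Correlations with array scores were added after the data were seen. In simulated data of 31042 probe sets for this comparison 36% of probe sets shifted by 4 within-group SDs were called by limma and 98% at 8, with 12 unmoved ones called.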

Additional observations from a re-analysis of the deposited data

Results flagged for a closer look

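Among 92 sets of 4 arrays examined (the members, the named genes and the array scores, in each diet), 10 had an array set apart from the other 3 by more than Dixon's critical share of their range, and chance alone gives about 1 in 20. Values are in SD units.

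Klf1 had such an array in each diet, high-fat replicate 2 at -0.739 and mulberry replicate 4 at 0.837. The dimmer Tal1 probe set was low in high-fat replicate 4 at -1.61. The Epor probe set 1369988_at was low in mulberry replicate 1 at -0.846. Slc40a1 was highest in mulberry replicate 4 at 1.71, and Hemgn was high in the same array at 0.483. Of the cell scores, neutrophil markers were low in high-fat replicate 2 at -1.16, where T cell markers were high at 0.733. Monocyte markers at 1.51 and natural killer markers at 2.12 were high in high-fat replicate 4.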

How the results depend on the processing

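The members' lack of a call held under every fit with the replicate block, array weights, an intensity trend, brighter probe sets, other scalings, score covariates and each array left out, with 0 members past the threshold in each. By the exact permutation test, unadjusted, 1 member passed. Over all probe sets 12 were called after quantile normalization, 1 of them (Epb42) among the red cell targets, and 1352 at an unadjusted p under 0.05. The Epb42 difference was -1.87 after quantile normalization, against -0.394 in the main fit (limma unadjusted p = 0.592). That size is the largest these SD units allow, reached when the arrays of each diet are tied at a single value. The Epb42 call thus reflects lost resolution and is not read as a diet difference. Whether the other calls after quantile normalization rest on tied arrays was not tested. Klf1 stayed lower (though at -0.00941 with the hybridization controls), and Gata1 higher, in all fits run, and the brighter Tal1 probe set stayed higher in all but quantile normalization. Median centring raised all probe sets by 1.15 in the median, so lower values can turn there by construction.

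Several differences and correlations changed sign or fell to 0. Median centring turned Epor 1382766_at to 1.14, Epor 1388090_a_at to 0.747, Zbtb7a to 1.13, Socs1 to 0.69, Cybrd1 to 1.06, Hmox2 to 1.13, Cd3g to 0.949, Klrc1 to 0.749, and the r of Gata1 with Epor to 0.242, Tal1 with Epor to 0.139 and Epor with Tfrc to 0.348. Quantile normalization gave 0 for the brighter Tal1 probe set, Nfe2 and 8 of the 23 named list genes (Gfi1b, Lyl1, Stat5a, Slc40a1, Hemgn, Epb41, Padi4 and Cd3g), 0.184 for Epor 1382766_at, -0.483 for Tfrc 1371113_a_at, 0.707 for Zbtb7a and Hmox2, and 0.483 for Cybrd1. A difference of 0 can come from tied arrays, and 0.707 is the size when a single array differs from the rest, which are equal. Such values reflect lost resolution and are not read as a diet difference that vanished or turned. Subtracting each array's median deviation gave -0.0116 for Tal1 1394720_at and -0.00154 for Nfe2, and array weights -0.0628 for Nfe2. The hybridization controls as covariate gave -0.906 for Tal1 1394720_at, 0.295 for Epor 1388090_a_at, -0.0669 for Tfrc 1371113_a_at and 0.0412 for Ahsp. The polyA controls gave -0.115 for Tal1 1394720_at, 0.536 for Epor 1388090_a_at, and -0.311 and -0.427 for Tfrc. The platelet score gave -0.597 for Nfe2, -0.0974 for Epor 1369988_at and 0.0509 for Epor 1388090_a_at, and the red cell score 0.121 for the last. Means over a gene's probe sets gave -0.0388 for Epor, 0.166 for Socs1, an r of 0.0493 for Gata1 with Epor and -0.0144 for Nfe2 with Tfrc. Within diets the r of Gata1 with Epor was 0.0094. Spearman's rho of Tal1 with Nfe2 was -0.143, and without the 2 farthest arrays r was -0.547, and -0.00965 for Tal1 with Tfrc. The causes were not tested.

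With each array left out, the differences ranged from -0.552 to 0.732 (Tal1 1394720_at), -0.329 to 0.849 (Nfe2), -0.195 to 0.886, -1.13 to 0.128 and -0.547 to 0.532 (Epor 1369988_at, 1382766_at and 1388090_a_at), 0.0389 to 1.06 and 0.407 to 1.17 (Tfrc 1371113_a_at and 1388750_at), and r from -0.277 to 0.25 (Gata1 with Epor), -0.507 to 0.652 (Tal1 with Nfe2) and -0.213 to 0.504 (Nfe2 with Tfrc). List medians ranged from -0.252 to 0.405 (lineage factors), 0.0341 to 0.263 (erythropoietin signalling), -0.226 to 0.18 (iron), -0.571 to -0.0777 (red cell targets), 0.319 to 1.04 (platelets), -0.059 to 0.697 (neutrophils), -0.766 to 0.0122 (monocytes), -0.017 to 0.571 (T cells), -1.19 to -0.326 (B cells), -1.04 to -0.711 (natural killer cells) and 0.0176 to 0.41 (eosinophils, mast cells and basophils). The count of related pairs ranged from 0 to 2, being 0 when 1 of high-fat replicates 3 and 4 and mulberry replicates 1 and 2 was missing, and 2 when mulberry replicate 4 was.

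The labels do not say that replicate numbers pair the arrays. The correlation of deviations ran from -0.05 to 0.246 in same-numbered pairs and from -0.199 to 0.147 in the others. The highest values were those of replicates 3 (0.246) and 4 (0.163), so a pairing was neither shown nor excluded. With the replicate block limma gave 0 calls, and 1728 probe sets at an unadjusted p under 0.05 against 1352 without it. The differences with the block were 1.04 for Gata1, -1.07 for Klf1 and 1.25 for the brighter Tal1 probe set.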
